A study of Mus musculus with 32 samples.

Results

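The proteasome subunit genes were taken as every gene whose symbol is Psma, Psmb, Psmc or Psmd followed by a number, measured by probes with exactly 1 gene symbol, leaving out the immune subunits Psmb8, Psmb9 and Psmb10. This gave 36 of the 18193 genes on the RNAi arrays, through 74 probe sets, and 35 of the 14461 genes on the inducer arrays. Psmb4 was measured on the RNAi arrays only. Each gene was read from its probe set of highest mean level on the RNAi arrays and from its probe with most values on the inducer arrays.

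The proteasome degrades proteins tagged with ubiquitin. Its core particle is a barrel of stacked rings: outer alpha rings (Psma genes) that gate entry, and inner beta rings (Psmb genes) that hold the proteolytic sites of Psmb5, Psmb6 and Psmb7. A regulatory particle caps the barrel, with a base of ATPases (Psmc genes) that unfold substrates and a lid and other subunits (Psmd genes) that bind and remove ubiquitin. Human embryonic stem cells are known for high proteasome activity, and the transcription factors Nfe2l1 and Nfe2l2 are known activators of these genes.

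All samples were E14TG2a mouse embryonic stem cells. In the RNAi experiment, 4 arrays held cells with a plasmid against Pou5f1 (Oct4), 5 held cells with a plasmid against Nanog, and 5 held cells with the parental vector, pSUPER-puro. All 3 groups were transfected with Lipofectamine and, from 24 hours later, selected for 3 days in puromycin at 1 µg/ml. In the inducer experiment, cells treated with 0.1 µM retinoic acid (RA), 1% dimethyl sulfoxide (DMSO) or 3 mM hexamethylene bisacetamide (HMBA) for 2, 4 or 6 days were hybridised on 2-colour arrays against untreated cells, with 2 arrays of opposite dye orientation per inducer and day. The labels do not say whether replicates came from separate cultures, so p-values measure the spread between arrays, which may be technical.

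Levels on the RNAi arrays are on a log2 scale and come from RMA, which corrects background, normalizes between arrays and summarises each probe set, and inducer values are log ratios of treated over untreated cells, taken here as log2. A gene is called where limma's adjusted p, over all probes tested, was under 0.05. Pou5f1 lay between 8.73 and 9.21 in Pou5f1 RNAi cells, against 11.31 to 11.51 in vector cells, and Nanog lay between 9.14 and 9.47 in Nanog RNAi cells, against 11.003 to 11.19 in vector cells. These are bulk samples, in which fewer cells of a type and less RNA per cell cannot be told apart. The 10 trophectoderm markers were all called higher in both knockdowns against vector, and the base-2 logarithm of their summed level ran from 14.85 to 14.96 in Pou5f1 RNAi arrays, 10.98 to 11.45 in Nanog RNAi arrays and 9.13 to 9.35 in vector arrays. That of the 8 pluripotency markers ran from 11.86 to 12.13 in Pou5f1 RNAi arrays, 13.38 to 13.51 in Nanog RNAi arrays and 13.85 to 14.05 in vector arrays. That of the 9 primitive endoderm markers ran from 11.92 to 12.06 in Pou5f1 RNAi arrays, 11.25 to 11.50 in Nanog RNAi arrays and 11.01 to 11.21 in vector arrays, of which 3 rose and 4 fell after Pou5f1 RNAi and 5 rose after Nanog RNAi. That of the 8 fibroblast markers ran from 7.40 to 7.45 in Pou5f1 RNAi arrays, 7.30 to 7.46 in Nanog RNAi arrays and 7.38 to 7.56 in vector arrays. The part of these differences in cell state in the results below was not tested.

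Replicates 4 and 5 stood apart in the Nanog RNAi and vector groups. Both lay above replicates 1 to 3 for 22 of the 36 subunit genes in Nanog RNAi cells and for 23 of 36 in vector cells, and this held for 37.4% and 37.5% of the 8084 genes with a mean log2 level of at least 6. Counts of calls from replicates 1 to 3 alone, a choice made after seeing the data, are given beside the counts from all arrays. The share of all genes called is not given for these fits, so their counts are not set against all genes.

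Knockdown of Pou5f1 lowered 1 subunit gene strongly and changed the common subunits little, 34 of the other 35 genes by less than 0.5 on the log2 scale. Psma8, the alpha subunit known from the testis, fell 4.17-fold. The ATPases Psmc3 and Psmc2, the ubiquitin receptor Psmd4 and the core subunit Psmb2 rose by 0.30 to 0.51 on the log2 scale, while the proteolytic subunit Psmb5, the ATPase Psmc6, the lid subunit Psmd7 and the alpha ring subunit Psma4 fell by 0.26 to 0.43. In all 9 of 36 genes were called, 4 higher and 5 lower, which is 25% of them, against 40.1% of all 18193 genes tested and 64.3% of the genes with a mean level of at least 6, which include 35 of the 36 subunit genes. The median change over the 36 genes was -0.05, against -0.04 over all genes tested. From replicates 1 to 3 alone, 13 were called, 8 higher and 5 lower.

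**Figure D1:**
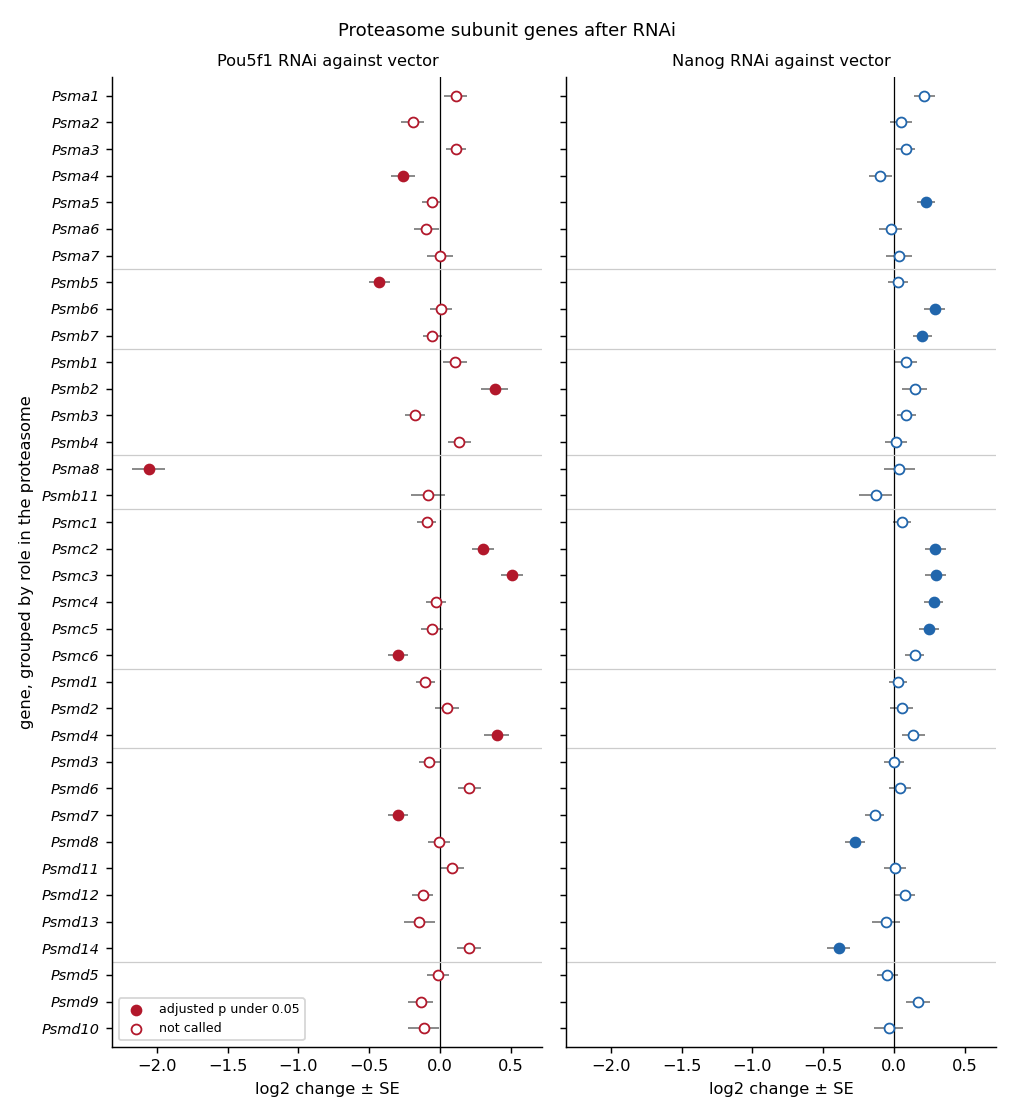
Log2 change of each of the 36 subunit genes (rows, grouped by role) after Pou5f1 RNAi (left) and Nanog RNAi (right) against vector; points are estimates, bars are SE, and filled points have a limma adjusted p under 0.05. Psma8 lies at -2.06 after Pou5f1 RNAi and at 0.04 after Nanog RNAi, and the other 35 genes lie between -0.43 and 0.51 after Pou5f1 RNAi.

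Psma8 replaces its close relative Psma7 in proteasomes of male germ cells. Its log2 level was 5.53, 5.80, 5.50 and 5.82 in Pou5f1 RNAi cells and 7.73, 7.82, 7.54, 7.75 and 7.96 in Nanog RNAi cells, against 7.46, 7.63, 7.57, 7.85 and 8.09 in vector cells. The Pou5f1 RNAi arrays lay below all others, and the Nanog RNAi and vector arrays overlapped. The change was -2.06 ± 0.12 (SE) after Pou5f1 RNAi (limma, adjusted p = 1.27e-11) and 0.04 ± 0.11 after Nanog RNAi (limma, adjusted p = 0.883), and the difference between the knockdowns was -2.10 ± 0.12 (limma, adjusted p = 1.13e-11). The pluripotency markers fell with it, as given above. Psma7 averaged 10.74 ± 0.05 in Pou5f1 RNAi cells (SD, n = 4) and 10.77 ± 0.15 in Nanog RNAi cells, against 10.74 ± 0.17 in vector cells (SD, n = 5 each), and was not called in either knockdown. Psmb11, the subunit known from the thymus, averaged 4.05 ± 0.06 in Pou5f1 RNAi cells (SD, n = 4) and 4.01 ± 0.18 in Nanog RNAi cells, against 4.14 ± 0.29 in vector cells (SD, n = 5 each); it was the 1 subunit gene with a mean level under 6.

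Of the 3 proteolytic subunits, Psmb5, which carries the chymotrypsin-like site, fell after Pou5f1 RNAi, and Psmb6 and Psmb7, which carry the caspase-like and trypsin-like sites, rose after Nanog RNAi. Psmb5 was at 10.49, 10.42, 10.63 and 10.59 in Pou5f1 RNAi cells and at 10.92, 10.96, 10.92, 11.11 and 11.05 in Nanog RNAi cells, against 10.88, 10.91, 11.04, 10.99 and 10.96 in vector cells. All 4 Pou5f1 RNAi arrays were below every other array, a change of -0.43 ± 0.07 against vector (SE; limma, adjusted p = 8.33e-05) and -0.46 ± 0.07 against Nanog RNAi (limma, adjusted p = 4.02e-05). Psmb6 was at 10.96, 10.96, 11.04 and 10.94 in Pou5f1 RNAi cells and at 11.18, 11.18, 11.16, 11.37 and 11.38 in Nanog RNAi cells, against 10.82, 10.87, 10.97, 11.09 and 11.09 in vector cells. The Nanog RNAi arrays lay above all vector arrays, by 0.29 ± 0.08 (SE; limma, adjusted p = 0.0114), and the Pou5f1 RNAi arrays overlapped the vector arrays, with a change of 0.01 ± 0.08. Psmb7 was at 11.88, 11.87, 12.02 and 11.87 in Pou5f1 RNAi cells and at 12.11, 12.13, 12.15, 12.22 and 12.21 in Nanog RNAi cells, against 11.96, 11.84, 12.02, 12.00 and 11.99 in vector cells. Its rise of 0.20 ± 0.07 after Nanog RNAi (SE; limma, adjusted p = 0.0428) lost its call without any single array of the 2 groups other than vector replicate 3 (adjusted p between 0.0518 and 0.106 in these 9 fits) and in the fit of the 2 groups alone (limma, adjusted p = 0.0733), and was not called from replicates 1 to 3 alone (adjusted p = 0.203).

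**Figure D2:**
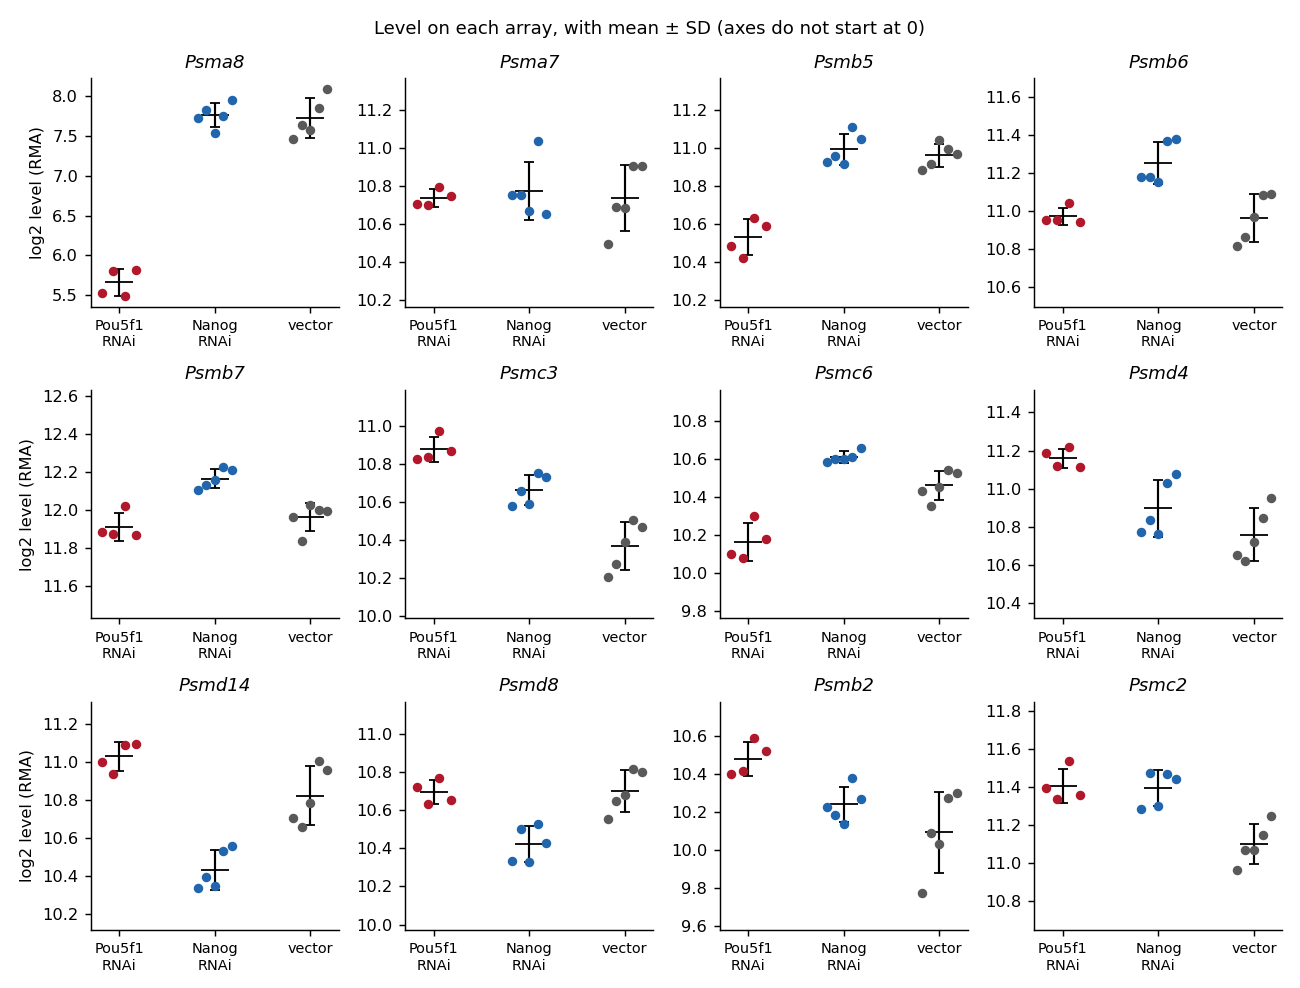
Log2 RMA level (vertical axis, not starting at 0) of 12 subunit genes on each array (points) with the group mean and SD (bars), for Pou5f1 RNAi (4 arrays), Nanog RNAi (5) and vector (5). The Pou5f1 RNAi points of Psma8 and Psmb5 lie below all points of the other groups, and the Nanog RNAi points of Psmd14 lie below all points of the other groups.

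Among the other core subunits, Psmb2 rose after Pou5f1 RNAi. It was at 10.40, 10.41, 10.59 and 10.52 in Pou5f1 RNAi cells and at 10.23, 10.19, 10.14, 10.38 and 10.27 in Nanog RNAi cells, against 9.78, 10.09, 10.03, 10.27 and 10.30 in vector cells. The Pou5f1 RNAi arrays lay above all vector arrays, by 0.39 ± 0.10 (SE; limma, adjusted p = 0.00314), and the 0.15 ± 0.09 after Nanog RNAi was not called. Psmb1, Psmb3 and Psmb4 changed by 0.11 ± 0.09, -0.18 ± 0.07 and 0.14 ± 0.08 after Pou5f1 RNAi and by 0.08 ± 0.08, 0.09 ± 0.07 and 0.01 ± 0.08 after Nanog RNAi (SE), with no call from the probe sets used. Another probe set of Psmb3, with a mean level of 10.85, was called lower after Pou5f1 RNAi, at -0.35 ± 0.09 (SE; limma, adjusted p = 0.00471), and another of Psmb1, with a mean level of 5.68, was called lower in Pou5f1 RNAi than in Nanog RNAi cells, at -0.32 ± 0.08 (limma, adjusted p = 0.00443), where the one used was at 0.02. Of the 7 alpha ring genes, 1 was called lower after Pou5f1 RNAi, Psma4, at -0.26 ± 0.09 (SE; limma, adjusted p = 0.0252). Its Pou5f1 RNAi and vector arrays overlapped, and its call was lost without Pou5f1 RNAi replicate 1, 2 or 4 or vector replicate 1, 2 or 3 (adjusted p between 0.0506 and 0.0873) and after quantile normalization (adjusted p = 0.0822). Another alpha ring gene was called higher after Nanog RNAi, Psma5, by 0.23 ± 0.06 (SE; limma, adjusted p = 0.0168), or by 0.13 with the mean of its probe sets, where the call was lost (adjusted p = 0.057). The other 5 alpha ring genes changed by between -0.19 and 0.12 after Pou5f1 RNAi and by between -0.02 and 0.22 after Nanog RNAi, with no call.

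The 6 ATPases of the base, which unfold substrates and thread them into the core, moved unequally. After Nanog RNAi, 4 of 6 were called higher and none lower from the probe sets used, with a median change of 0.27, against a median of -0.02 over all genes, of which 12.1% were called higher, or 21% of those with a mean level of at least 6. Psmc3 was at 10.83, 10.83, 10.97 and 10.87 in Pou5f1 RNAi cells and at 10.58, 10.66, 10.59, 10.75 and 10.73 in Nanog RNAi cells, against 10.20, 10.27, 10.39, 10.50 and 10.47 in vector cells. The 3 groups did not overlap, with changes against vector of 0.51 ± 0.08 after Pou5f1 RNAi (SE; limma, adjusted p = 2.26e-05) and 0.29 ± 0.07 after Nanog RNAi (limma, adjusted p = 0.00787). Psmc2 was at 11.39, 11.33, 11.53 and 11.35 in Pou5f1 RNAi cells and at 11.28, 11.47, 11.30, 11.47 and 11.44 in Nanog RNAi cells, against 10.96, 11.07, 11.07, 11.15 and 11.25 in vector cells. Both knockdowns lay above all vector arrays, by 0.30 ± 0.08 after Pou5f1 RNAi (SE; limma, adjusted p = 0.00434) and 0.29 ± 0.07 after Nanog RNAi (limma, adjusted p = 0.00834). These 2 comparisons share their vector arrays.

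Psmc4 and Psmc5 were called after Nanog RNAi and not after Pou5f1 RNAi. Psmc4 was at 11.01, 10.88, 10.94 and 10.87 in Pou5f1 RNAi cells and at 11.24, 11.21, 11.22, 11.18 and 11.33 in Nanog RNAi cells, against 11.03, 10.88, 10.83, 11.06 and 10.96 in vector cells. Its change was 0.28 ± 0.07 after Nanog RNAi (SE; limma, adjusted p = 0.00604) and -0.03 ± 0.07 after Pou5f1 RNAi, and the difference between the knockdowns was -0.31 ± 0.07 (limma, adjusted p = 0.002), or -0.15 with the mean of its probe sets, where the call was lost (adjusted p = 0.0591). Another probe set of Psmc4, with a mean level of 10.47, was not called after Nanog RNAi, at 0.06 ± 0.08 (SE; limma, adjusted p = 0.692). Psmc5 changed by 0.25 ± 0.07 after Nanog RNAi (SE; limma, adjusted p = 0.0215), a call lost without vector replicate 1 or without Nanog RNAi replicate 4 (adjusted p between 0.0511 and 0.0635), and by -0.06 ± 0.08 after Pou5f1 RNAi, with a difference of -0.30 ± 0.08 (limma, adjusted p = 0.00364). Psmc1 was called in neither knockdown.

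Psmc6 went the other way after Pou5f1 RNAi. It was at 10.10, 10.08, 10.30 and 10.18 in Pou5f1 RNAi cells and at 10.58, 10.60, 10.60, 10.61 and 10.66 in Nanog RNAi cells, against 10.43, 10.35, 10.45, 10.54 and 10.53 in vector cells. The 3 groups did not overlap, with changes against vector of -0.30 ± 0.07 after Pou5f1 RNAi (SE; limma, adjusted p = 0.00245) and 0.15 ± 0.07 after Nanog RNAi (limma, adjusted p = 0.165), and a difference of -0.45 ± 0.07 (limma, adjusted p = 4.05e-05). Its other 2 probe sets gave -0.57 ± 0.14 and -0.53 ± 0.11 after Pou5f1 RNAi and 0.52 ± 0.13 and 0.41 ± 0.10 after Nanog RNAi, all 4 called. Over the 19 subunit genes with more than 1 probe set and the 3 RNAi comparisons, another probe set was called the same way as the one used in 13 cases and the opposite way in 0, and in 12 cases it was called where the one used was not. In 2 genes of these last, Psmd11 and Psmb1, the probe set used lay on the other side of 0. Cases where the one used was called and another was not are left out of these counts. Among them were a Psma5 probe set with a mean level of 10.99, at 0.14 ± 0.06 after Nanog RNAi (SE; limma, adjusted p = 0.159). A Psmd4 probe set with a mean level of 10.33 was at 0.16 ± 0.08 in Pou5f1 RNAi against Nanog RNAi (limma, adjusted p = 0.17).

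Psmd4, which binds ubiquitin chains at the base, rose after Pou5f1 RNAi. It was at 11.18, 11.12, 11.22 and 11.12 in Pou5f1 RNAi cells and at 10.77, 10.84, 10.76, 11.03 and 11.08 in Nanog RNAi cells, against 10.65, 10.62, 10.72, 10.85 and 10.95 in vector cells. The Pou5f1 RNAi arrays lay above all others, by 0.40 ± 0.09 against vector (SE; limma, adjusted p = 0.00105), and the 0.14 ± 0.08 after Nanog RNAi was not called. The scaffold subunits Psmd1 and Psmd2 were called in neither knockdown.

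Both genes called lower after Nanog RNAi belong to the lid. Psmd14, the deubiquitinase that removes ubiquitin from substrates as they enter, was at 11.001, 10.93, 11.09 and 11.09 in Pou5f1 RNAi cells and at 10.33, 10.39, 10.35, 10.53 and 10.56 in Nanog RNAi cells, against 10.71, 10.66, 10.78, 11.01 and 10.96 in vector cells. The Nanog RNAi arrays lay below all others, a change of -0.39 ± 0.08 against vector (SE; limma, adjusted p = 0.00173), while the 0.21 ± 0.09 after Pou5f1 RNAi was not called (limma, adjusted p = 0.0756). The difference between the knockdowns was 0.60 ± 0.09 (limma, adjusted p = 1.1e-05), the largest among the 15 common subunits called in that comparison. Psmd8, a lid subunit, was at 10.72, 10.63, 10.77 and 10.65 in Pou5f1 RNAi cells and at 10.33, 10.50, 10.33, 10.53 and 10.43 in Nanog RNAi cells, against 10.55, 10.65, 10.68, 10.82 and 10.80 in vector cells. It fell by 0.28 on the log2 scale after Nanog RNAi (SE 0.07; limma, adjusted p = 0.0116), a call not made from replicates 1 to 3 alone (adjusted p = 0.101), and was not called after Pou5f1 RNAi, at -0.00 ± 0.08. Its Nanog RNAi arrays lay below all arrays of both other groups.

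Psmd7, the partner of Psmd14 in the lid, was at 9.88, 9.88, 10.01 and 9.76 in Pou5f1 RNAi cells and at 10.0035, 10.06, 10.09, 10.05 and 10.02 in Nanog RNAi cells, against 10.17, 10.09, 10.26, 10.19 and 10.18 in vector cells. The Pou5f1 RNAi arrays lay below all vector arrays, a change of -0.29 ± 0.07 (SE; limma, adjusted p = 0.00229), and the -0.13 ± 0.07 after Nanog RNAi was not called. The other 5 lid genes, Psmd3, Psmd6, Psmd11, Psmd12 and Psmd13, and the 3 chaperones that help assemble the base, Psmd5, Psmd9 and Psmd10, were called in neither knockdown from the probe sets used. Another probe set of Psmd11, with a mean level of 9.94, was called lower after Pou5f1 RNAi, at -0.34 ± 0.11 (SE; limma, adjusted p = 0.0206), where the one used was at 0.09, and against Nanog RNAi, at -0.51 ± 0.11 (limma, adjusted p = 0.00086), where the one used was at 0.08. The other probe sets of Psmd13 called had mean levels under 6, one lower after Pou5f1 RNAi at -0.38 ± 0.09 and after Nanog RNAi at -0.40 ± 0.08, and another lower after Pou5f1 RNAi at -0.35 ± 0.10 (SE), where the one used was at -0.14 after Pou5f1 RNAi and -0.05 after Nanog RNAi.

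After Nanog RNAi 9 of the 36 genes were called, 7 higher and 2 lower, or 25%, against 20.8% of all 18193 genes and 35% of those with a mean level of at least 6. The median change was 0.05, against -0.02 over all genes. Replicates 1 to 3 alone gave 8 calls, 7 higher and 1 lower. Pou5f1 RNAi against Nanog RNAi gave 16 calls, 4 higher and 12 lower, or 44.4%, against 37.4% of all genes and 61% of those with a mean level of at least 6, with a median of -0.08 against -0.01 over all genes. Replicates 1 to 3 alone gave 12 calls there, 5 higher and 7 lower. Psmd4 was higher in Pou5f1 RNAi than in Nanog RNAi cells by 0.26 ± 0.09 (SE; limma, adjusted p = 0.0274), a call lost without Pou5f1 RNAi replicate 1 or 3 or Nanog RNAi replicate 1, 2 or 3 (adjusted p between 0.0605 and 0.0781). The calls of Psmc3, Psma2, Psmd12 and Psmd9 there were each lost without at least 1 single array, with adjusted p up to 0.153.

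The 250 bases before the transcription start of 3 genes that changed after Pou5f1 RNAi are printed here, from RefSeq on GRCm38.p6, because Psmb5 and Psmc6 fell and Psmd4 rose: the letters let the known control elements of proteasome promoters be seen beside these values. Capitals mark the antioxidant response element core TGACNNNGC, bound by Nfe2l1 and Nfe2l2, the CCAAT box, bound by NF-Y, and the ETS core CCGGAAG, on either strand. The window of Psmb5 is at chr14:54617996-54618245 on the minus strand, that of Psmc6 at chr14:45329574-45329823 on the plus strand and that of Psmd4 at chr3:95042615-95042864 on the minus strand, each printed 5′ to 3′ in the gene's direction.
Psmb5: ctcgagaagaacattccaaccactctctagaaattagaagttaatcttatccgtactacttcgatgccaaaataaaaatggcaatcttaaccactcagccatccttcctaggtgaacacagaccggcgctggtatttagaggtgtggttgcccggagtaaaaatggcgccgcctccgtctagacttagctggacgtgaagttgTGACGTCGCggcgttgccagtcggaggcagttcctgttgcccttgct
Psmc6: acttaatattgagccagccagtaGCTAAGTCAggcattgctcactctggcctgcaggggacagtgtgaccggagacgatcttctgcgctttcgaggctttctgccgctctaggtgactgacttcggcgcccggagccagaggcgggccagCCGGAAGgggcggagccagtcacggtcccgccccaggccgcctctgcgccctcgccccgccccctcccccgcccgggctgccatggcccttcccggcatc
Psmd4: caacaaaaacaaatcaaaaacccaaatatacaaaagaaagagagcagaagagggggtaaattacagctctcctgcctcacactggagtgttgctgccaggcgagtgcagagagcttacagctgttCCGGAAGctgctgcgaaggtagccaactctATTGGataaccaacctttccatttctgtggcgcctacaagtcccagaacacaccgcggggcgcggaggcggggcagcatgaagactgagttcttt
The capitals are TGACNNNGC in Psmb5, TGACNNNGC on the other strand and then CCGGAAG in Psmc6, and CCGGAAG and then CCAAT on the other strand in Psmd4. Such promoter windows were given for 29 of the 36 subunit genes and 27025 genes in all. TGACNNNGC was in 5 of the 29 (17.2%), against 11.5% of all genes with a window, CCAAT in 12 (41.4%, against 37.5%) and CCGGAAG in 9 (31.0%, against 7.83%). No overlap between the motifs was found in the printed windows, and a match describes the letters only. The 5 genes with TGACNNNGC changed after Pou5f1 RNAi by -0.43 (Psmb5), 0.01 (Psmb6), -0.30 (Psmc6), -0.12 (Psmd12) and -0.14 (Psmd9) on the log2 scale. Of these Psmb5 and Psmc6 were called, where 40.1% of all genes tested were called. Among the genes with CCAAT, Psmc2 and Psmd4 were called, both higher. Among those with CCGGAAG, Psmc2 and Psmd4 were called higher and Psmc6 lower. A link between motif and change was not tested.

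The lists of genes that act with the proteasome are read against the share of all genes called, 40.1% after Pou5f1 RNAi and 20.8% after Nanog RNAi, or 64.3% and 35% of genes with a mean level of at least 6. Of 8 regulators of proteasome genes measured, 5 rose and 1 fell after Pou5f1 RNAi, among them Nfe2l1 at 0.67 ± 0.09 (SE; limma, adjusted p = 6.12e-06) and Nfyb, a subunit of NF-Y, at -0.76 ± 0.07 (limma, adjusted p = 2.65e-08). After Nanog RNAi 3 were called higher and 1 lower, with Nfyb at -0.54 ± 0.07 (SE; limma, adjusted p = 6.59e-06). Of the 7 assembly factors measured, 4 fell and 1 rose after Pou5f1 RNAi, led by Psmg1, a chaperone of alpha ring assembly, at -1.01 ± 0.07 (SE; limma, adjusted p = 1.54e-10). After Nanog RNAi 2 fell and 1 rose, with Psmg1 at -0.30 ± 0.06 (SE; limma, adjusted p = 0.00212). Of the 7 immune subunits and activators measured, Psmb10 at -0.88 ± 0.08 and the activator Psme4 at -0.73 ± 0.07 were called lower after Pou5f1 RNAi, and the inhibitor Psmf1 was called higher in both knockdowns. After Nanog RNAi 1 of the 7 was called lower, Psme3, at -0.31 ± 0.08 (SE).

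Of 11 proteasome-bound receptors and deubiquitinases measured, 5 rose and 3 fell after Pou5f1 RNAi and 3 rose after Nanog RNAi, near the shares of genes with a mean level of at least 6. Ecpas, a scaffold that binds proteasomes, was at 1.17 ± 0.08 after Pou5f1 RNAi and 0.68 ± 0.08 after Nanog RNAi, and Zfand5, which stimulates them, was at 1.14 ± 0.07 and 0.45 ± 0.07 (SE, all 4 called). Of 7 genes of the p97 segregase, which extracts ubiquitinated proteins, 4 were called higher after Pou5f1 RNAi and 3 after Nanog RNAi. Ngly1, a glycanase that acts on extracted proteins, was at 0.83 ± 0.11 after Pou5f1 RNAi and 0.66 ± 0.11 after Nanog RNAi (SE, both called). Of 12 heat shock genes measured, 7 were called higher in each knockdown and 1 lower after Pou5f1 RNAi, with Hspa1b at 3.07 ± 0.08 after Pou5f1 RNAi and 2.00 ± 0.08 after Nanog RNAi. Of 9 targets of Nfe2l2, 4 were called higher in each, with Hmox1 at 1.47 ± 0.09 after Pou5f1 RNAi and 1.23 ± 0.08 after Nanog RNAi. Of the 8 genes of CCT, a folding chamber for proteins, 2 fell after Pou5f1 RNAi, Cct7 at -0.27 ± 0.07 and Cct6a at -0.24 ± 0.07 (SE). After Nanog RNAi the 8 lay between -0.23 and 0.04, the smallest limma adjusted p being 0.0915, for Cct4. Of 3 ubiquitin and E1 genes measured, 1 was called lower after Nanog RNAi, the conjugating enzyme gene Ube2d3, at -0.31 ± 0.09 (SE; limma, adjusted p = 0.0161). After Pou5f1 RNAi the 3 lay between 0.03 and 0.11, without a call.

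The inducers were compared with untreated cells as the mean over days 2, 4 and 6. Psma8 was lower in every one of the 18 arrays. Its log ratio for RA was -1.27 and -0.58 on day 2, -0.68 and -1.34 on day 4 and -1.76 and -1.90 on day 6. For DMSO it was -1.33 and -1.47 on day 2, -2.86 and -2.92 on day 4 and -3.35 and -3.53 on day 6, and for HMBA -1.11 and -1.48, then -2.30 and -2.77, then -2.90 and -3.21. The mean was -1.26 ± 0.12 for RA (SE; limma, adjusted p = 8.07e-06), -2.58 ± 0.12 for DMSO (limma, adjusted p = 3.77e-08) and -2.29 ± 0.12 for HMBA (limma, adjusted p = 5.41e-08), that is 2.39-fold, 5.97-fold and 4.91-fold lower than in untreated cells. The fall was smaller with RA than with DMSO, by 1.32 ± 0.17 (SE; limma, adjusted p = 0.000397), and than with HMBA, by 1.04 ± 0.17 (limma, adjusted p = 0.00344). DMSO and HMBA differed by -0.28 ± 0.17, which was not called (limma, adjusted p = 0.83). The pluripotency markers were called lower with RA in 7 of 8 cases and with DMSO and HMBA in 8 of 8, and of 7 primitive endoderm markers 6, 2 and 3 were called higher with RA, DMSO and HMBA and 1 lower with each. Of 9 trophectoderm markers 6, 1 and 5 were called higher and 0, 1 and 1 lower, and of 6 fibroblast markers 3, 1 and 2 were called higher and 0, 1 and 0 lower, in the same order. The part of these markers in the fall of Psma8 was not tested. Untreated cells are the common channel of all 18 arrays, so the 3 inducers are not independent of each other and the spread of untreated cells is not in these errors.

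**Figure D3:**
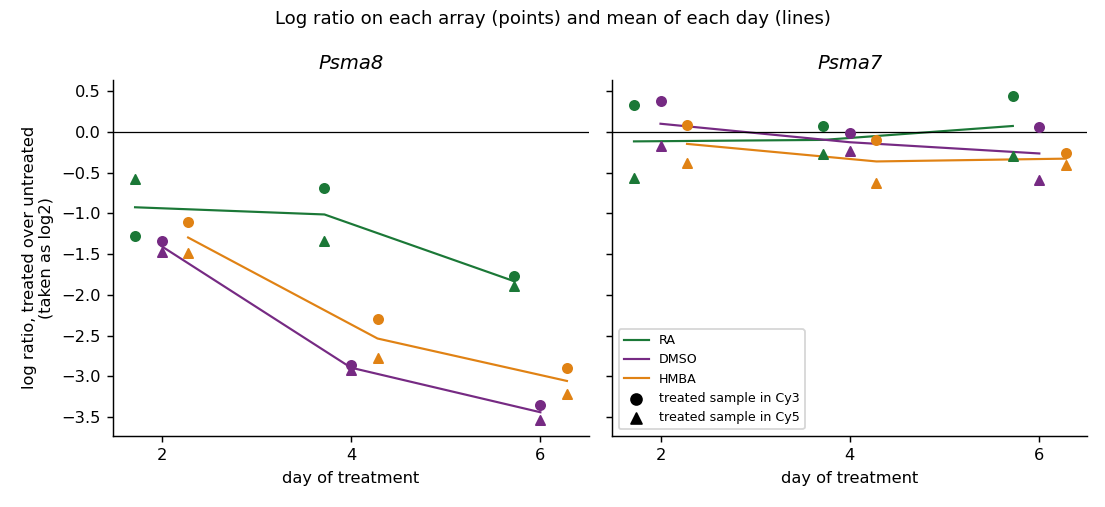
Log ratio of treated over untreated cells (vertical axis, taken as log2) by day of treatment for Psma8 (left) and its relative Psma7 (right); points are arrays, by dye orientation, and lines join the mean of each day for RA, DMSO and HMBA. All Psma8 points lie below 0 and reach -3.53 on day 6 of DMSO, while the Psma7 points lie on both sides of 0.

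From day 2 to day 6 the Psma8 ratio fell further with DMSO and HMBA. The mean on days 2, 4 and 6 was -0.92, -1.01 and -1.83 for RA, -1.40, -2.89 and -3.44 for DMSO and -1.30, -2.53 and -3.05 for HMBA. Day 6 minus day 2 was -2.04 ± 0.29 for DMSO (SE; limma, adjusted p = 0.00589), -1.76 ± 0.29 for HMBA (limma, adjusted p = 0.00919) and -0.91 ± 0.29 for RA (limma, adjusted p = 0.235). With dye orientation as a replicate block, the RA difference was called too (limma, adjusted p = 0.0193). The DMSO call was lost without any of its 4 arrays of days 2 and 6 (adjusted p between 0.0517 and 0.0941), and the HMBA call without day 2 replicate 1 or day 6 replicate 2 (adjusted p between 0.121 and 0.137) and after scaling all arrays to one spread (adjusted p = 0.0705). Psma7 lay between -0.57 and 0.44 with RA, -0.59 and 0.38 with DMSO and -0.62 and 0.08 with HMBA.

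The count of subunit genes called with the inducers turned on how dye orientation was treated. Psma8 was called with each inducer. Of the other 32 genes tested, 1, 3 and 3 were called with RA, DMSO and HMBA without the block. Of the 33 genes with a value in every group, 2 were called with RA, or 6.06%, against 27.5% of the 12029 genes tested, 4 with DMSO, or 12.1%, against 19.3%, and 4 with HMBA, or 12.1%, against 28.3%. With dye orientation as a replicate block they were 10, 16 and 19 of 33, or 30.3%, 48.5% and 57.6%, against 52.6%, 45.1% and 52.9% of all genes. Without the block they were 1 higher and 1 lower with RA, 1 higher and 3 lower with DMSO and 1 higher and 3 lower with HMBA, and with arrays centred on their mean 0 higher and 1 lower with RA and 0 higher and 5 lower with HMBA. The median change was -0.06 with RA, -0.13 with DMSO and -0.15 with HMBA, against 0.01, 0.02 and 0.00 over all genes tested. Between inducers, Psma8 was the 1 gene called in RA against DMSO (6.48% of all genes) and in RA against HMBA (3.14%), and 0 of 33 were called by limma in DMSO against HMBA (1.75%), where 0 had an unadjusted p under 0.05. With dye orientation as a block 3, 4 and 0 of 33 were called in these comparisons (23.6%, 16.9% and 11.4% of all genes). From day 2 to day 6, 0 of 33 were called by limma with RA (1.34% of all genes), where 2 had an unadjusted p under 0.05, 1 with DMSO (1.13%) and 1 with HMBA (1.75%), Psma8 in both, and with the block 2, 2 and 1 (12.2%, 10.8% and 11.3% of all genes). Psmb11 had values on 7 arrays and Psmc4 on 6, and neither was tested.

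**Figure D4:**
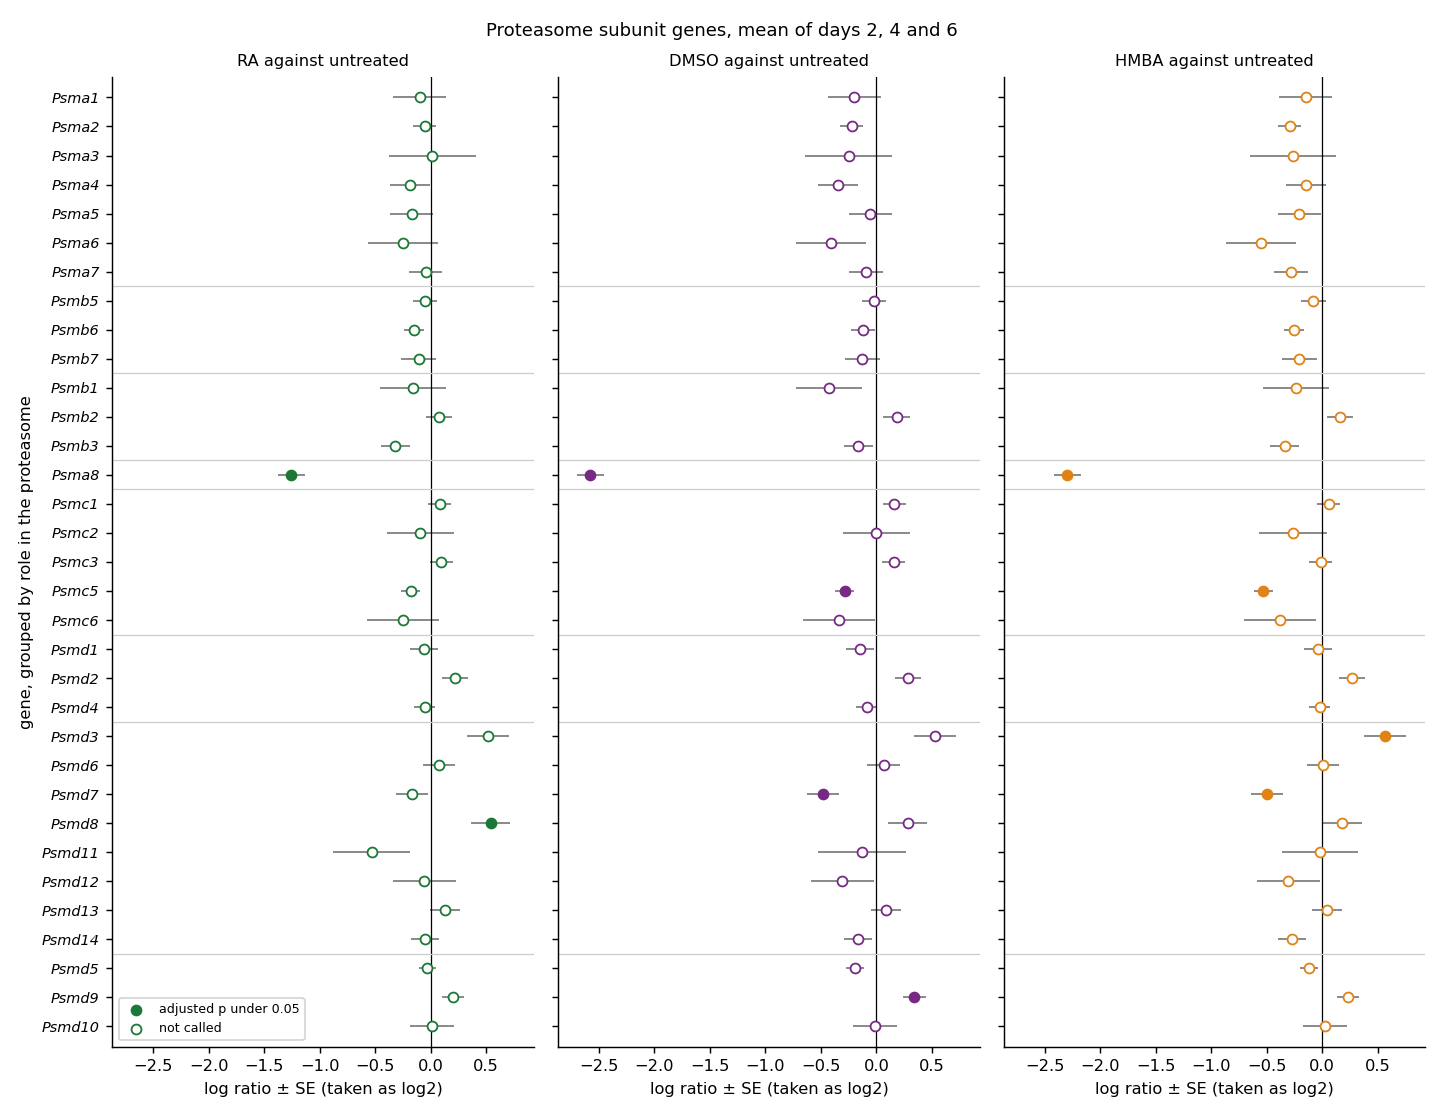
Log ratio over untreated cells (taken as log2, mean of days 2, 4 and 6) of the 33 tested subunit genes, grouped by role, for RA, DMSO and HMBA; points are estimates, bars are SE, and filled points have a limma adjusted p under 0.05. Psma8 lies at -1.26, -2.58 and -2.29, and the other 32 genes lie between -0.55 and 0.57.

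The arrays separated by dye orientation. For every inducer and day, replicate 1 had the treated cells in Cy3 and replicate 2 had them in Cy5. Dye and any other difference between these sets of replicates cannot be told apart. On the 9 arrays with the treated cells in Cy3 the median over the subunit genes ran from -0.00 to 0.25, and on the 9 arrays with them in Cy5 from -0.39 to -0.16. Of 296 pairs of a gene's 2 arrays of one inducer and day, 175 (59.1%) had opposite signs, and Psma1, Psma3, Psma6, Psmb1, Psmc2, Psmc6, Psmd6 and Psmd10 had opposite signs in all 9 pairs. The medians and the share of opposite signs over all genes are not given. Neither is therefore read as a trait of the subunit genes. Deviations from the group means were correlated between arrays of the same orientation in all 36 pairs of groups, so the fit with dye orientation as a replicate block is given beside each count it changes. The genes called with that block were 4 higher and 6 lower with RA, 4 higher and 12 lower with DMSO, and 3 higher and 16 lower with HMBA. Shares of all genes with the block are given above for both directions together only. These counts by direction are therefore not set against all genes. Inducer fits without a single array had no dye term, and left that inducer and day with a single array and dye orientation. A call lost in them may come from dye as well as from the array left out, and these were not told apart.

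**Figure D5:**
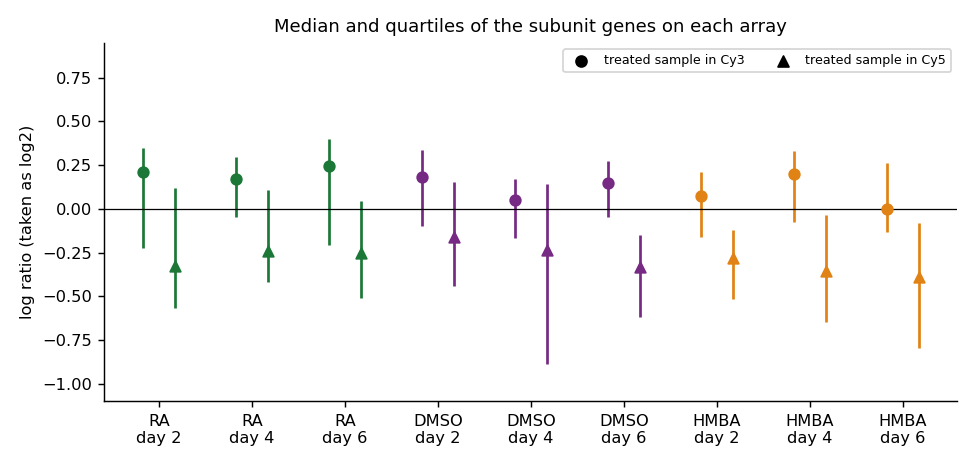
Median (points) and quartiles (bars) of the log ratios of the subunit genes on each of the 18 arrays, by inducer and day (horizontal axis) and dye orientation (circles, treated cells in Cy3; triangles, in Cy5). The Cy3 medians lie between -0.00 and 0.25 and the Cy5 medians between -0.39 and -0.16.

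The 3 proteolytic subunits were not called with any inducer without the block. Psmb5 ran from -0.34 to 0.37 with RA (median -0.14), from -0.33 to 0.20 with DMSO (median -0.01) and from -0.37 to 0.27 with HMBA (median -0.11). Psmb6 ran from -0.33 to -0.03 with RA (median -0.11), from -0.37 to 0.10 on 5 arrays with DMSO (median -0.10) and from -0.54 to -0.01 with HMBA (median -0.26). Psmb7 ran from -0.67 to 0.25 with RA (median -0.04), from -0.45 to 0.17 with DMSO (median -0.11) and from -0.49 to 0.06 with HMBA (median -0.20). With HMBA the mean of Psmb6 was -0.25 ± 0.09 (SE; limma, adjusted p = 0.0637) and that of Psmb7 -0.21 ± 0.16 (limma, adjusted p = 0.42). Both were called with dye orientation as a block (limma, adjusted p = 0.00881 for Psmb6 and 0.0168 for Psmb7).

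The ATPase Psmc5 was lower with HMBA on all 6 arrays, from -0.93 to -0.21 (median -0.46), with a mean of -0.53 ± 0.08 (SE; limma, adjusted p = 0.000455). With DMSO it ran from -0.75 to 0.32 (median -0.36), with a mean of -0.28 ± 0.08 (limma, adjusted p = 0.0343) whose call was lost without day 2 replicate 1, day 4 replicate 2 or either day 6 array (adjusted p between 0.0657 and 0.165) and after scaling all arrays to one spread (adjusted p = 0.0516). With RA it ran from -0.45 to 0.12 (median -0.15), with a mean of -0.18 ± 0.08 (limma, adjusted p = 0.144, and 0.0479 with dye orientation as a block). Its mean on days 2, 4 and 6 of DMSO was 0.15, -0.36 and -0.65, and day 6 minus day 2, at -0.80 ± 0.21, was called only with the block (limma, adjusted p = 0.00764). With the block it was also higher with RA than with HMBA, by 0.35 ± 0.10 (SE; limma, adjusted p = 0.0278).

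The lid subunit Psmd7 was below 0 on all 6 DMSO arrays, from -0.99 to -0.05 (median -0.45), and on all 6 HMBA arrays, from -0.80 to -0.19 (median -0.45). Its mean was -0.48 ± 0.14 with DMSO (SE; limma, adjusted p = 0.0393) and -0.50 ± 0.14 with HMBA (limma, adjusted p = 0.0228). The DMSO call was lost without either day 2 array, day 4 replicate 2 or day 6 replicate 2 (adjusted p between 0.0538 and 0.187), and the HMBA call without replicate 2 of any day (adjusted p between 0.0986 and 0.111). With RA it ran from -0.64 to 0.26 (median -0.24) and was not called. With dye orientation as a block it was higher with RA than with DMSO by 0.31 ± 0.10 (SE; limma, adjusted p = 0.0371) and than with HMBA by 0.33 ± 0.10 (limma, adjusted p = 0.0342).

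Psmd3, Psmd8 and Psmd9 were called higher with 1 inducer each, and each of these calls was lost without some single arrays. The lid subunit Psmd3 was above 0 on all 6 HMBA arrays, from 0.03 to 1.06 (median 0.63), with a mean of 0.57 ± 0.19 (SE; limma, adjusted p = 0.0472) whose call was lost without either day 2 array, day 4 replicate 2 or day 6 replicate 2 (adjusted p between 0.0928 and 0.218) and with arrays centred on their mean (adjusted p = 0.061). It ran from -0.16 to 1.02 with RA (median 0.53) and from 0.02 to 1.18 with DMSO (median 0.54), and was called with each with the dye block. Psmd8 ran from -0.18 to 1.35 with RA (median 0.51), with a mean of 0.54 ± 0.18 (SE; limma, adjusted p = 0.0412) whose call was lost without any single array other than day 4 replicate 1 (adjusted p between 0.0506 and 0.22). It was also lost with arrays centred on their mean (adjusted p = 0.06) or scaled to one spread (adjusted p = 0.0511), which left 1 call with RA, lower. Psmd8 ran from -0.16 to 1.17 with DMSO (median 0.23) and from -0.07 to 0.48 with HMBA (median 0.15), without a call where no block was used. The base chaperone Psmd9 was above 0 on all 6 arrays of each inducer. It ran from 0.06 to 0.37 with RA (median 0.19) and from 0.10 to 0.40 with HMBA (median 0.22), again without a call where no block was used. With DMSO it ran from 0.12 to 0.87 (median 0.27), with a mean of 0.34 ± 0.10 (SE; limma, adjusted p = 0.034). Its call was lost without either array of days 2 and 6 or without day 4 replicate 2 (adjusted p between 0.0862 and 0.178), and without the last of these its mean was 0.22.

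Calls made only with dye orientation as a block fell in the alpha ring, the ATPases, the base and the lid among others. Psma6, an alpha ring subunit, was at -0.25 ± 0.08 with RA, -0.41 ± 0.08 with DMSO and -0.55 ± 0.08 with HMBA (SE, all called). Psmc6 was at -0.25 ± 0.09 with RA, -0.34 ± 0.09 with DMSO and -0.38 ± 0.09 with HMBA (SE, all called). The scaffold subunit Psmd2, which rose with all 3, was at 0.22 ± 0.08 with RA, 0.29 ± 0.08 with DMSO and 0.27 ± 0.08 with HMBA (SE). Psmd11, a lid subunit, was at -0.53 ± 0.10 with RA and differed from HMBA by -0.51 ± 0.14 and from DMSO by -0.63 ± 0.15, or by -0.40 ± 0.52 without the block, where DMSO day 4 has a value on 1 array only.

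The same lists are read here against the 27.5% of all genes called with RA, 19.3% with DMSO and 28.3% with HMBA. Of 7 immune subunits and activators, 3 rose with DMSO. The immune subunit Psmb8 was at 1.09 ± 0.11 (SE; limma, adjusted p = 2.23e-05), the activator Psme1 at 1.07 ± 0.10 (limma, adjusted p = 1.1e-05) and Psme4 at 0.69 ± 0.11 (limma, adjusted p = 0.000845). With RA and with HMBA 1 of the 7 was called, Psme1, at 0.37 ± 0.10 and 0.33 ± 0.10 (SE). Of 7 assembly factors, 1 fell with RA, 0 were called with DMSO and 3 fell with HMBA, with Psmg1 at -0.77 ± 0.17 with RA and -0.63 ± 0.17 with HMBA (SE, both called). Of 9 proteasome-bound receptors and deubiquitinases, 2, 1 and 1 were called higher with RA, DMSO and HMBA and 0, 1 and 1 lower. Of 6 p97 genes, 2, 1 and 2 were called higher and 0, 1 and 0 lower, in the same order. Ubqln2, which carries ubiquitinated proteins to the proteasome, was at 1.13 ± 0.10 with RA, 0.82 ± 0.10 with DMSO and 1.10 ± 0.10 with HMBA, and Faf2, a cofactor of p97, was at 1.06 ± 0.14, 0.89 ± 0.14 and 1.19 ± 0.14 (SE, all called). Of the 8 CCT chaperonin genes, 3 fell with RA, 2 with DMSO and 2 with HMBA, and none rose. Of 8 regulators of proteasome genes, 1, 1 and 1 were called higher with RA, DMSO and HMBA and 0, 1 and 1 lower. Of 8 targets of Nfe2l2, 0, 0 and 1 were called higher and 3, 2 and 2 lower, in the same order. Of 9 heat shock genes, 1, 1 and 1 were called higher and 1, 2 and 2 lower. None of the 3 ubiquitin and E1 genes measured was called.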

How the data were processed

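RNAi samples were hybridised to Affymetrix mouse expression arrays, and the deposited log2 levels were made by RMA, per the submitters' processing notes. Inducer samples were hybridised to 2-colour custom arrays, and the deposited log ratios of treated over untreated cells, per the labels, were taken as log2; their base, background correction and normalization are not given in the sources used here. Arrays give no read depth, and their number limits the precision.

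Probes were named through the platform annotation: 34945 of 45037 RNAi probe sets and 16345 of 21106 inducer probes had 1 symbol, 932 and 125 had several, and 9160 and 4636 had none. Models with 1 mean per group were fitted with limma 3.58.1 in R 4.3.3 across all arrays and probes of an experiment, with Benjamini-Hochberg adjustment and a threshold of 0.05. Inducer probes entered where every group had a value (16657 probes). The code was tested on simulated data. Arrays of the same dye orientation deviated together (r between 0.505 and 0.92), so the labels' replicate number, which marks dye, pairs the inducer arrays. Same-numbered RNAi arrays did so less (5 of 13 pairs over 0.1). Between Nanog RNAi and vector arrays r was 0.17, 0.20, 0.09, 0.44 and 0.39 for replicates 1 to 5. Deviations shared by number are left in the RNAi fits without a block.

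Alternatives were dye or replicate number as a block, only the groups compared, other scalings, a minimum mean level of 6, the mean of all probes, robust variance and leaving out each array. All subunit genes could be named, neighbouring lists by up to 3 called genes each way of smallest p. The members and lists were chosen with earlier results of these data known.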

Additional observations from a re-analysis of the deposited data

Results flagged for a closer look

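Among 108 sets of replicates of a subunit gene on the RNAi arrays, 5 had 1 array far from the others, and chance alone gives about 1 in 20. In Pou5f1 RNAi cells, Psma5 was at 11.11 on replicate 4, against 11.21 to 11.23 on the others, and replicate 3 was high for Psmb6, at 11.04 against 10.94 to 10.96, and for Psmb7, at 12.02 against 11.87 to 11.88. In Nanog RNAi cells, replicate 4 was high for Psma7, at 11.04 against 10.66 to 10.75, and for Psmd2, at 11.43 against 11.15 to 11.22. The Psma8 ratio over untreated cells differed between time points by limma's test, with day 6 minus day 2 at -2.04 for DMSO and -1.76 for HMBA, and each of these calls was lost without some single arrays.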

How the results depend on the processing

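The medians over the subunit genes moved by less than the spread between replicates under all alternatives run, and no called gene turned its direction. On the inducer arrays that spread holds the gap between dye orientations. Medians per array ran there from -0.00 to 0.25 in Cy3 and from -0.39 to -0.16 in Cy5. The median changes of -0.06 with RA, -0.13 with DMSO and -0.15 with HMBA are small beside this gap. For the inducers this comparison could therefore hardly fail, and it shows no stability. The count for Pou5f1 RNAi against vector was 14, 6 higher and 8 lower, with the mean of all probes of a gene. Shares of all genes are not given for the mean of all probes, for centred or scaled arrays or without single arrays. With dye orientation as a replicate block the counts were 10 for RA, 16 for DMSO, 19 for HMBA, 3 for RA against DMSO, 4 for RA against HMBA, and 2 each for day 6 against day 2 of RA and of DMSO. With arrays centred on their mean or scaled to one spread RA gave 1 call, lower, and scaling left 0 for day 6 against day 2 of HMBA. The cause was not tested. Leaving out single arrays gave 8 to 11 calls for Pou5f1 RNAi and 7 to 9 for Nanog RNAi against vector, 11 to 15 between the knockdowns, 1 to 3 for RA, 1 to 5 for DMSO, 2 to 4 for HMBA, 0 to 0 for day 6 against day 2 of DMSO and 0 to 1 of HMBA. The fewest calls came without DMSO day 2 replicate 1, day 4 replicate 2 or day 6 replicate 2 (1 each), without RA day 4 replicate 2 or either day 6 array (1 each) and without replicate 2 of any HMBA day (2 each).

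Small changes without a call turned sign. Psmb5 after Nanog RNAi was at -0.013 from replicates 1 to 3 alone. Without single arrays Psmb6 after Pou5f1 RNAi ran from -0.029 to 0.039 (-0.017 and -0.014 among them), Psmb5 with RA from -0.15 to 0.043 (0.030 among them), with DMSO from -0.078 to 0.038 (0.020 among them) and with HMBA from -0.17 to 0.0094, and Psmb7 with RA from -0.26 to 0.038. The RNAi replicate number as a block, a number the arrays only share, gave 11 calls for Pou5f1 RNAi (44.3% of all genes) and 10 for Nanog RNAi (24%) against vector and 17 between them (39.8%). Arrays limit these results: the inducer fits have 2 arrays per day.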
